A study of Mus musculus with 11 samples.

Results

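Cluster 4 of the mouse stellate ganglion comprised 54 of the 878 cells with deposited profiles. Nearly all of its cells carried Vip, the neuropeptide vasoactive intestinal peptide, together with genes of acetylcholine release. Its members were the cells to which the authors' deposited annotation gives the cluster number 4. They were set against cluster 1 (388 cells) and cluster 2 (335 cells), whose neurons had far higher levels of the noradrenaline transporter gene Slc6a2.

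The stellate ganglion is a sympathetic ganglion whose neurons send axons to the heart, the forelimb and brown fat, among other targets. Most sympathetic neurons make noradrenaline from tyrosine through the enzymes tyrosine hydroxylase, aromatic amino acid decarboxylase and dopamine beta-hydroxylase. A minority use acetylcholine, which choline acetyltransferase makes and the vesicular acetylcholine transporter loads into vesicles, and many of these, such as the neurons that innervate sweat glands in rodent paws, also contain vasoactive intestinal peptide. In rodent sweat gland neurons the cholinergic state is acquired after birth from a noradrenergic one, under the action of cytokines that signal through the receptor subunit gp130.

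All cells came from 6 male C57BL/6J mice aged 6 to 8 weeks. Each mouse had received cholera toxin subunit B, a retrograde tracer, in 2 colours: CTB-555 went into iBAT, the interscapular brown fat, and CTB-488 into a forelimb. Ganglia were taken 3 days later and those of 2 mice were pooled as a set. The 3 sets are the replicates (n = 3 throughout), and there is no untreated control. Clusters 1, 2 and 4 therefore share mice, tracers, ages and plates.

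Sorted single cells in 11 plates gave the 3' counts, and the series states 1039 cells where the deposited table holds 878. Levels below are counts per 10000 counts of a cell, averaged over the cells of a set. The 54 cells held 10842 to 81888 counts each, with a median of 35488.5 counts and 6633 genes. Median counts by set were 31625.5 to 40614 in cluster 4, 27211 to 30846 in cluster 1 and 35748.5 to 46238 in cluster 2. Cluster 4 cells used 40 of the 96 well barcodes, which every plate reuses. Intervals cover counting error only.

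Cluster 4 made up 3.60% of the cells of Set 1 (12 of 333, 95% Clopper-Pearson interval 1.88 to 6.21%), 7.36% of Set 2 (24 of 326, 4.77 to 10.8%) and 8.22% of Set 3 (18 of 219, 4.94 to 12.7%). The mean was 6.39% ± 2.46 (SD, n = 3). Every plate held cluster 4 cells, from 2 to 10 of them, or 2.41% to 12.7% of its cells. Tracer sorting and well filling set this denominator, so the shares describe the deposited cells and not the ganglion.

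The 7 markers given for the class were all present. Every one of the 54 cells had a Vip count, with a median level of 53.4 and a highest of 131. In the lowest 2 cells the level was 0.478 and 0.559, within the range of single cells of clusters 1 and 2. Slc18a3, the vesicular acetylcholine transporter, was counted in 52 cells (96.3%). Slc5a7, the choline transporter that returns choline to the terminal, was counted in 45 (83.3%), and Chat, choline acetyltransferase, in 38 (70.4%). Calcb, a calcitonin gene-related peptide precursor, was counted in 40 cells (74.1%), Cartpt, the precursor of the CART peptide, in 47 (87.0%), Ass1, argininosuccinate synthase, in 53 (98.1%) and Gfra2, the neurturin co-receptor, in 52 (96.3%).

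The cholinergic genes were also counted together in each cell. In cluster 4, 36 of 54 cells had counts of all of Slc18a3, Slc5a7 and Chat, 10 had counts of 2 of them, 7 of 1 and 1 of none. No cell of cluster 1 or cluster 2 had all 3, and 0 and 2 cells had 2. A Vip count was found in 39.9% of cluster 1 and 43.0% of cluster 2 cells, at mean levels of 0.215 and 0.232. Thinned to 15000 counts per cell, which kept 53, 367 and 323 cells of clusters 4, 1 and 2, the shares with a Vip count were 98.1%, 23.4% and 18.6%. The highest Vip level of a single cell was 1.89 in cluster 1 and 12.2 in cluster 2. The cDNA of a plate was pooled, whose part in these low levels was not tested, and they are not read as expression.

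A pair of cells of Set 2, on different plates, stood apart from the other 52 and are the members with no Slc18a3 count. They held 62790 and 35804 counts but Vip at only 0.478 and 0.559, against 12.4 to 131 in the others, and no Slc5a7, Calcb or Gfra2. Atf3, a transcription factor gene known for its response to axon injury, was at 11.1 and 12.8, where no other cluster 4 cell exceeded 0.968. Rgs4, a regulator of G protein signalling, was at 35.2 and 23.2, above the highest of the others (5.47). Hspb1, a small heat shock protein gene, was at 23.9 and 51.1, against a highest value of 14.9. Their level of Th, tyrosine hydroxylase, was 12.7 and 17.0, within the range of the others. Leaving the pair out changed none of the 104 calls on named genes given below that could be recomputed.

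Differences are log2(1 + counts per 10000), averaged over cells, cluster 4 minus the mean of clusters 1 and 2, with a standard error (SE) from a limma fit over the 3 sets. A gene is called higher or lower where the Benjamini-Hochberg adjusted p of that fit was under 0.05. The clusters were made from the expression of these same cells, so a call says that a difference repeated over the sets and is no independent test of the class. Of 10564 genes, 24.7% were called against the mean of clusters 1 and 2 (12.4% higher, 12.3% lower). Against cluster 1 alone 21.3% were called (11.9% higher, 9.49% lower), and against cluster 2 alone 20.0% (9.13% higher, 10.9% lower). In all, 1307 genes were called in 1 direction against both clusters, with the same sign in every set, 715 of them higher in cluster 4 and 592 lower. The shares over all genes are the background for the counts of list members below. The scale understates differences of genes with low levels. Genes were tested at a mean level of at least 0.05 over the sets of all 3 clusters. Genes with a mean under 0.05 over the sets of clusters 1 and 2 passed only through cluster 4. Among them are Slc18a3, Slc5a7, Chat, Calcb, Sst, Adcyap1, Grin3a, Kcnab1, Pcdh17, Ly6c1 and Ppp1r1c. A higher call on such a gene was nearly fixed by the filter.

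The genes that make, load and recycle acetylcholine were higher in cluster 4. Slc18a3 stood at 4.41, 4.71 and 6.2 in Sets 1, 2 and 3, against 0.0134 to 0.0185 in cluster 1 and 0.0361 to 0.0725 in cluster 2, a difference of 2.44 (SE 0.0644). The lowest cluster 4 set was thus far above the highest set of either other cluster. Slc5a7 was at 1.94, 2.89 and 1.81, and at most 0.0143 in any set of clusters 1 and 2, a difference of 1.43 (SE 0.0698). Chat was at 0.426, 0.518 and 0.579, against at most 0.005 elsewhere, a difference of 0.51 (SE 0.0283). Slc18a3 (GRCm38 chromosome 14, 32462438 to 32464850, minus strand) lies inside the span of Chat (32408203 to 32465989, minus strand). Their annotated 3' ends, near which 3' counts arise, lie apart at 32462438 and 32408203. How far reads of the overlapping pair were mixed was not tested.

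Of 11 tested genes of acetylcholine handling, 7 were called higher and 2 lower, with a median difference of 0.17 against -0.00091 over all genes. Slc18a3, Slc5a7 and Chat are among those higher and passed the filter on mean level only through cluster 4. Their part in the count is therefore no independent support. Prima1, which anchors acetylcholinesterase at membranes, was at 0.797, 0.907 and 1.05, with means of 0.0334 in cluster 1 and 0.0986 in cluster 2, a difference of 0.75 (SE 0.0326). Acly, ATP citrate lyase, a source of acetyl-CoA, was higher by 0.38, with a mean of 6.27 against 5.54 and 3.77. Colq, the collagen tail of acetylcholinesterase, was at 0.585, close to the 0.610 of cluster 2 and above the 0.0468 of cluster 1. The enzyme gene Ache and the choline transporter-like gene Slc44a2 were lower, by differences of -0.17 and -0.23. Those lower calls depended on the sets: there were 0 without Set 1 and 1 without Set 2.

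Vip had the largest difference of any gene called higher against both clusters. It was at 57.8, 54.8 and 49.6 in cluster 4, 54.1 ± 4.14 (SD, n = 3), and the difference was 5.22 (SE 0.0584). Cartpt was at 12.6, 28.1 and 14.7, with a highest set of 0.209 in cluster 1 and 0.238 in cluster 2, a difference of 2.59 (SE 0.073). Its sets differed by more than those of Vip, and all of them lay above every set of the other clusters. Calcb was at 1.4, 1.38 and 2.06, where neither other cluster exceeded 0.00773, a difference of 1.08 (SE 0.0524). Sst, somatostatin, was at 5.14, 5.11 and 2.67, against 0.0515 to 0.0957 in cluster 1 and at most 0.00929 in cluster 2, a difference of 0.90 (SE 0.0508).

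The peptides of the other clusters were low. Npy, neuropeptide Y, was at 4.29, 3.91 and 2.22 in cluster 4, against 170 to 199 in cluster 1 and 14.1 to 33.9 in cluster 2. No cluster 4 set reached the lowest set of either. The difference was called against cluster 1 (-5.44, SE 0.401) but not against cluster 2 (-1.66, SE 0.401, limma adjusted p = 0.0598), and the call against their mean was lost without Set 1 (limma adjusted p = 0.077). Gal, galanin, was at 2.46, 2.59 and 1.19, against 44.2 to 60.9 and 6.68 to 11.9, and was called lower against both clusters, by -3.98 (SE 0.271) and -1.56 (SE 0.271). Adm, adrenomedullin, had means of 0.0136, 1.47 and 0.469 in clusters 4, 1 and 2. Of 13 tested neuropeptide genes, 6 were called higher and 4 lower. Adcyap1, the PACAP precursor, was among those higher, with a mean of 0.454 against 0.00242 and 0.0715. Calcb and Adcyap1, like Sst, passed the filter on mean level only through cluster 4. Higher calls on them are therefore no independent support.

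**Figure D1:**
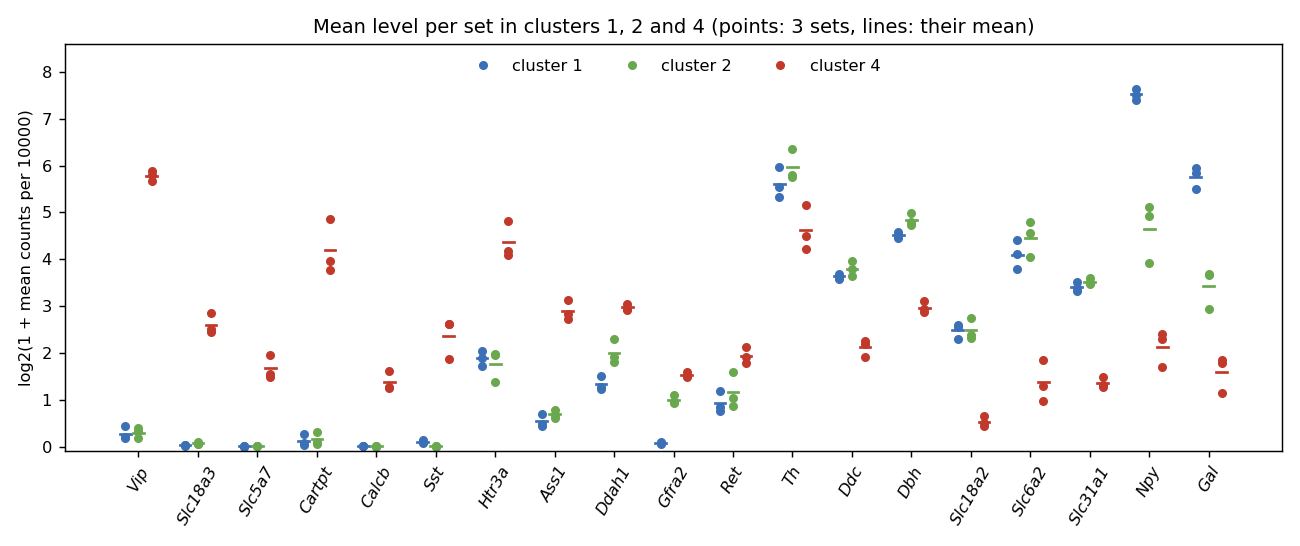
Mean level of 19 genes in each set, as log2 of 1 plus the mean counts per 10000 (vertical axis), for clusters 1 (blue), 2 (green) and 4 (red). Points are the 3 sets and short lines their mean. Vip, Slc18a3, Slc5a7, Cartpt, Calcb and Sst are low in clusters 1 and 2 and above 1 in every set of cluster 4, and Th, Dbh and Slc6a2 are lower in cluster 4 than in both.

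The 250 bases before the annotated start are shown for the peptide genes with the largest differences among those higher in cluster 4, Vip and Cartpt, for the overlapping cholinergic pair and for Th, because these genes separate the class from its neighbours. The sequences are RefSeq's on GRCm38.p6, 5' to 3' on the gene's strand, for 8 of 12 genes looked up that matched. Capitals mark TGACG on either strand and its extension TGACGTCA, the letters of the cAMP response element, in which TGACG occurs on both strands.
Vip: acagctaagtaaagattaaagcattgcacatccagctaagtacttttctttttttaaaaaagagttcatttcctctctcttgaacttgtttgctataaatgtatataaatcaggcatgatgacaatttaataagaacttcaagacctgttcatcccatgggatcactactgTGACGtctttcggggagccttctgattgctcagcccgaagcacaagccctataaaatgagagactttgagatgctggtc
Cartpt: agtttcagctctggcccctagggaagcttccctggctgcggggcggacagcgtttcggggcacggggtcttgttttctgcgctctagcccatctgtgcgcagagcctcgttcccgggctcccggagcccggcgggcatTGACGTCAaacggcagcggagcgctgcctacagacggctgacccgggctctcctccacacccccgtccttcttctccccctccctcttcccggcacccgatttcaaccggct
Slc18a3: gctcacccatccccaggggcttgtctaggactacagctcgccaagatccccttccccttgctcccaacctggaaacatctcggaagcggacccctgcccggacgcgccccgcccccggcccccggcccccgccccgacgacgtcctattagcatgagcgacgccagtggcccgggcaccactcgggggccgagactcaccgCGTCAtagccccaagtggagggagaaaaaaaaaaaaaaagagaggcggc
Chat: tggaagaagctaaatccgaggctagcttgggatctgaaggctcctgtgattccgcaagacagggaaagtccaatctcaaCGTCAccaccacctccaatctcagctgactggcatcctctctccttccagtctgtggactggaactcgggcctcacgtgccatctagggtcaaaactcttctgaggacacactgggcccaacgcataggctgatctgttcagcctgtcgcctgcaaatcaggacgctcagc
Th: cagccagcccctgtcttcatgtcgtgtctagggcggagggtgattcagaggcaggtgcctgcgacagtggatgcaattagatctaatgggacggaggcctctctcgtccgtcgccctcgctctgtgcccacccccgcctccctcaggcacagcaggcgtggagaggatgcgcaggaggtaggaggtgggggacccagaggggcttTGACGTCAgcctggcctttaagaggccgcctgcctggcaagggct
The windows were chr10:5638968-5639217 for Vip, plus strand, and chr13:99900684-99900933 for Cartpt, minus strand. They were chr14:32464851-32465100 for Slc18a3, chr14:32465910-32466159 for Chat and chr7:142899996-142900245 for Th, all on the minus strand. TGACGTCA was found in 2 of the 8 windows, those of Cartpt and Th, starting 112 and 45 bases before the start. One is a gene higher in cluster 4 and the other a gene lower in it. TGACG was found in Vip (79 bases before the start), Slc18a3 (49), Chat (171) and Dbh, besides Cartpt and Th, and not in Ass1 or Slc5a7. Over all 32851 windows of this length, 1.55% held TGACGTCA and 17.8% held TGACG. TTCNNNGAA, the letters that STAT factors are known to bind, was in none of the 8 and in 7.02% of all windows. A match is a description of letters and not of a bound site.

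Nearly the whole noradrenaline programme was lower in cluster 4, where counts of its genes were still found. Of 16 tested genes of noradrenaline handling, 14 were called lower and 1 higher, with a median difference of -1.58. Slc6a2, the noradrenaline transporter, was at 1.44, 2.62 and 0.955, against 12.8 to 20.1 in cluster 1 and 15.5 to 26.6 in cluster 2, a difference of -2.94 (SE 0.0493). Every cluster 4 set lay below every set of both. Slc18a2, the vesicular monoamine transporter, was at 0.417, 0.563 and 0.352, against means of 4.62 and 4.65, a difference of -1.97 (SE 0.065). A count of it was still found in 70.4% of cluster 4 cells. The cDNA of a plate was pooled, and the part of pooling in low levels such as these was not tested. The same holds for the low levels of Npy and Gal in cluster 4.

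The synthetic enzymes were lower as well. Th was at 21.6, 17.5 and 34.7, below the 39.2 to 62.2 of cluster 1 and the 52.7 to 81.1 of cluster 2, a difference of -1.70 (SE 0.0471). Every cluster 4 cell had a Th count, at levels from 0.480 to 80.7. The lowest cells of clusters 1 and 2 were at 16.2 and 21.7. The part of plate pooling in the lowest Th levels of cluster 4 cells was not tested either. Dbh, dopamine beta-hydroxylase, was at 6.64, 7.59 and 6.30, against means of 22 and 27.7, a difference of -1.83 (SE 0.0395), also with a count in every cell. Ddc, the decarboxylase, was lower by a difference of -1.70 (SE 0.058), and Gch1, which makes the cofactor tetrahydrobiopterin, by -1.47 (SE 0.0449). Slc31a1, the copper importer, was at 1.48, 1.79 and 1.42 against means of 9.60 and 10.5, a difference of -2.33 (SE 0.0494). Copper is the cofactor of dopamine beta-hydroxylase.

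The monoamine oxidases that degrade noradrenaline were lower too. Maoa had a mean of 2.47 ± 0.938 (SD, n = 3), against 8.73 and 11.5, a difference of -1.90 (SE 0.0689). Maob was at 0.413, 0.416 and 0.457, against means of 5.55 and 2.87, a difference of -1.78 (SE 0.0518).

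**Figure D2:**
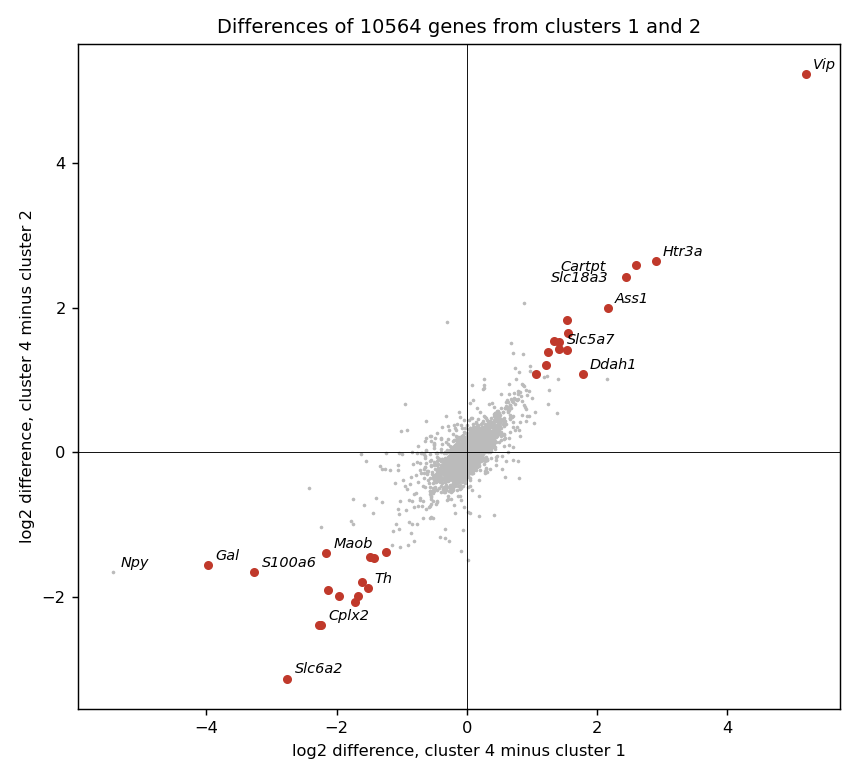
Log2 difference of each of 10564 genes between cluster 4 and cluster 1 (horizontal axis) and between cluster 4 and cluster 2 (vertical axis), with the 15 genes in each direction that had the largest smaller difference in red. Both axes use the cluster 4 cells, so the diagonal shape is built in. Vip stands alone at the upper right, and Npy lies farther from cluster 1 (-5.44) than from cluster 2 (-1.66).

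Htr3a, a subunit of the ionotropic serotonin receptor, had the largest difference after Vip among genes called higher against both clusters. It was at 17.1, 16.1 and 27.2, against 2.31 to 3.10 in cluster 1 and 1.60 to 2.91 in cluster 2, a difference of 2.77 (SE 0.188). Its partner subunit gene Htr3b was at 1.80, 1.96 and 2.83, with means of 1.03 and 0.497, a difference of 0.88 (SE 0.0613). All 3 sets of both genes were above every set of clusters 1 and 2. A count of Htr3a was found in 98.1% of cluster 4 cells, 66.2% of cluster 1 cells and 91.6% of cluster 2 cells, and after thinning in 98.1%, 59.9% and 84.2%.

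Of 18 tested genes for GABA, glutamate, serotonin and purine receptors, 7 were called higher and 1 lower. Grin3a, an NMDA receptor subunit, was at 0.177, 0.498 and 0.256 in cluster 4 and at most 0.0156 in any set of the others, and Gria2, an AMPA receptor subunit, was lower by a difference of -0.57 (SE 0.0526). The nicotinic receptor that ganglionic neurons use to receive their input was lower: Chrna3 had a mean of 3.78 against 5.09 and 5.88, and Chrnb4 1.66 against 2.92 and 3.13. Of 6 acetylcholine receptor genes, 4 were called lower, or 2 without Set 1, and 1 higher, the muscarinic gene Chrm2. Of 4 adrenergic receptor genes, 3 were called lower and 0 higher, and the sets of Adra2b were at 0.0394, 0.06 and 0.0404 against means of 0.498 and 0.548.

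Peptide and hormone receptor genes were called lower in 8 of 15 and higher in 4. Agtr1a, an angiotensin II receptor gene, was at 0.0371, 0.0345 and 0.0138, against 0.748 to 1.04 and 1.10 to 1.27, a difference of -0.88 (SE 0.0442). Ramp1, which forms the CGRP receptor, had a mean of 1.57 against 2.19 and 4.26. Sstr2, a somatostatin receptor gene, was higher, at 0.212, 0.395 and 0.519 against means of 0.0381 and 0.0715.

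Trophic factor receptor genes went in both directions. Ret, the receptor of the GDNF family, was at 2.78, 3.37 and 2.44, against 0.680 to 1.27 in cluster 1 and 0.818 to 2.03 in cluster 2, a difference of 0.87 (SE 0.0538). Its co-receptor Gfra2 was at 1.86, 1.82 and 2.03, against 0.0440 to 0.0758 in cluster 1 and 0.895 to 1.15 in cluster 2. The difference of Gfra2 was 1.38 (SE 0.0573) from cluster 1 and 0.54 (SE 0.0573) from cluster 2, where 87.8% of cells had a count. Ngfr, the p75 neurotrophin receptor, was lower by a difference of -0.72 (SE 0.0543). Of 10 tested genes in this list, 4 were called higher and 5 lower.

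Of 13 genes of gp130 cytokine signalling, 3 were called higher and 1 lower, the latter 0 without Set 2 and without Set 3. That is 30.8% called, not far from the 24.7% of all genes tested. Stat3, the transcription factor downstream of gp130, was at 2.43, 2.23 and 2.29, against 0.998 to 1.39 and 0.610 to 0.825, a difference of 0.80 (SE 0.0552). Lifr, the leukaemia inhibitory factor receptor, had a mean of 0.968 against 0.283 and 0.698, a difference of 0.39 (SE 0.0581). From cluster 2 alone Lifr differed by only 0.20 (limma adjusted p = 0.0482), and its sets overlapped, at 0.617 to 1.46 against 0.449 to 0.962. Socs2, a feedback inhibitor, was higher by 0.28 (SE 0.0531), with sets of 1.14 to 1.26 that overlapped the 0.736 to 1.18 of cluster 1. Il6st, which encodes gp130, and Cntfr were not called.

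Among 26 transcription factor genes of sympathetic neurons, 11 were called lower and 6 higher. Tfap2b was at 0.618, 0.695 and 0.421, against means of 2.22 and 1.98, a difference of -1.04 (SE 0.0547). Isl1 (-0.74), Gata2 (-0.67), Hmx1 (-0.58), Hand1 (-0.41) and Gata3 (-0.23) were also lower, and Phox2a and Hand2 were not called. Ebf1 was higher, at 3.09, 3.22 and 3.16 against means of 1.08 and 1.89, a difference of 0.80 (SE 0.0449). Tbx3 (0.36) and Sox11 (0.46) were higher as well. Of 6 tested Hox genes, 0 were called higher and 2 lower, Hoxc5 and Hoxc4. Without Set 1, and likewise without Set 3, 1 was called lower.

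Genes of arginine metabolism differed in opposite directions. Ass1, which makes argininosuccinate from citrulline, was at 5.65, 6.08 and 7.77, against means of 0.457 and 0.614, a difference of 2.08 (SE 0.0602). Asl, which cleaves argininosuccinate to arginine, was at 0.811, 0.678 and 0.734, against means of 3.16 and 3.54, a difference of -1.30 (SE 0.0526). Ddah1, which breaks down the nitric oxide synthase inhibitor asymmetric dimethylarginine, was at 6.69, 7.31 and 6.55, against means of 1.53 and 3.04, a difference of 1.43 (SE 0.0599). The arginine transporter Slc7a3 was higher by 0.57 (SE 0.0575). Of 13 tested genes in the list, 6 were called higher and 1 lower, and 3 were called higher without Set 1 and 3 without Set 2.

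Genes of the release machinery were called in both directions. Of 45 genes of synaptic vesicle release, 21 were called lower and 10 higher. Cplx2, a complexin that clamps and promotes fusion, was at 1.57, 1.71 and 0.946, against means of 9.64 and 10.8, a difference of -2.32 (SE 0.0448). Rab3b, a vesicle GTPase, had a mean of 3.51 against 16.2 and 13.5, a difference of -2.02 (SE 0.0704), and Syt1, the calcium sensor of fast release, 9.97 against 21.3 and 25.5 (-1.17, SE 0.0347). Rab3c (0.41), Syt4 (0.27) and Cplx1 (0.24) were higher. Of 14 genes of granins and peptide processing, 7 were called lower, with Scg2 at -1.05 (SE 0.0848), Pcsk2 at -1.0 (SE 0.0724) and Chgb at -0.71 (SE 0.062), and 4 were higher, Resp18, Pam, Vgf and Pcsk1.

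Cytoskeletal genes were split, with 11 of 27 called in each direction. Nefl, a neurofilament subunit, was at 8.38, 7.90 and 11.8, against 2.94 to 4.68 and 3.28 to 5.01, a difference of 1.14 (SE 0.0621). Nefm (0.58) and Prph (0.44) were higher and the alpha-internexin gene Ina (-0.77) lower. Among 41 adhesion genes, 13 were called higher and 9 lower: Pcdh17 had a mean of 0.744 against 0.0423 and 0.0333, and Cadm1 1.72 against 8.15 and 4.65. Of 28 axon guidance genes, 3 were called higher and 10 lower. Without Set 1, 6 were called lower, and without Set 2, 1 was called higher.

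Ion channels showed no common direction. Of 30 potassium channel genes, 9 were called higher and 10 lower, or 5 lower without Set 2 and 6 without Set 3. Kcnab1, an auxiliary subunit, was at 0.755, 0.635 and 0.564 against means of 0.0790 and 0.0142, and Kcnmb4, of the BK channel, at 0.0876, 0.185 and 0.0878 against means of 1.48 and 0.363. The M-current gene Kcnq3 was lower by a difference of -0.43. Of 29 sodium, calcium, HCN and TRP channel genes, 8 were called higher and 6 lower, with Cacng5 higher by 0.40 and Cacnb3 lower by a difference of -0.40. Of 18 calcium sensor genes, 9 were called lower and 2 higher, or 1 higher without Set 2 and likewise without Set 3. S100a6 was at 0.456, 0.525 and 0.267 against 15.0 to 19.5 and 3.39 to 7.15, a difference of -2.46 (SE 0.192), and Ncald had a mean of 2.26 against 10.8 and 4.22.

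**Figure D3:**
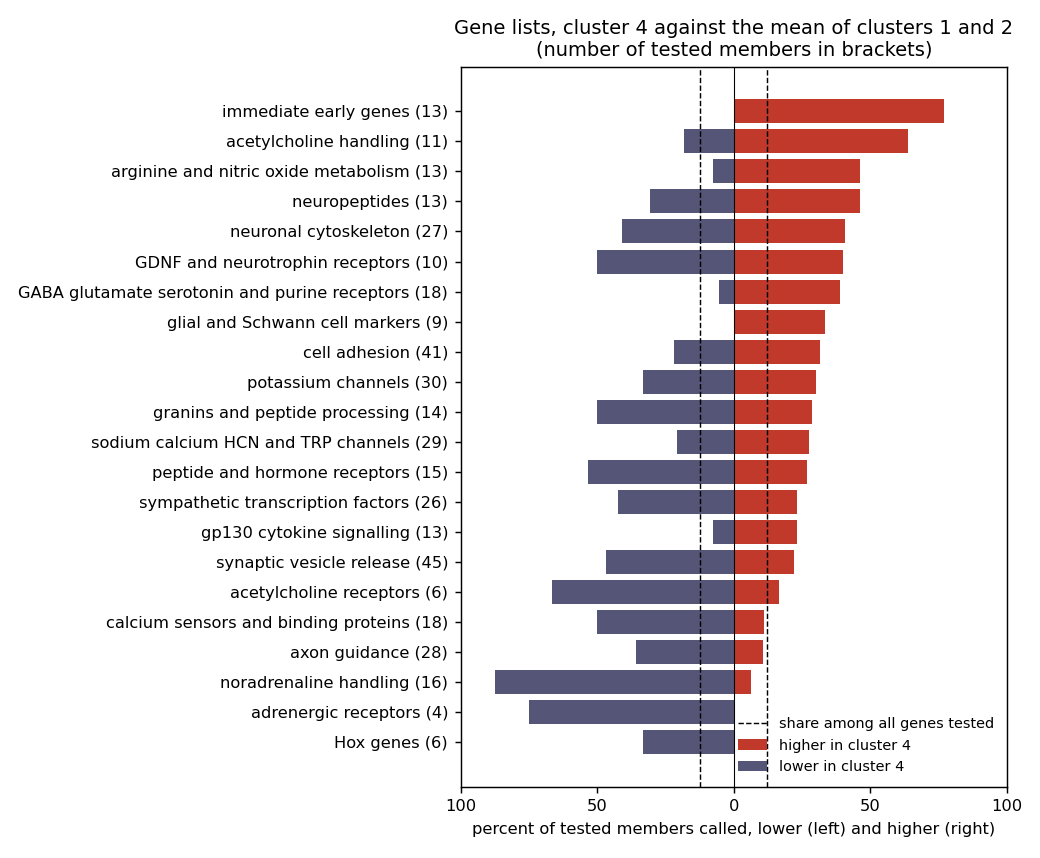
Percent of the tested members of each gene list with 4 or more tested members that were called higher (red, right) or lower (grey, left) in cluster 4 against the mean of clusters 1 and 2, with the number of tested members in brackets. Dashed lines mark the shares over all genes tested, 12.4% higher and 12.3% lower. Among the lists shown, noradrenaline handling extends farthest to the left and immediate early genes farthest to the right.

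Several of the genes with the largest differences belonged to none of those groups. Gadd45g, a growth arrest and stress response gene, was at 5.28, 5.81 and 6.12, against means of 1.25 and 0.800, a difference of 1.68 (SE 0.0616). Cdkn1a, the cell cycle inhibitor p21, was at 3.29, 4.38 and 4.71, against 0.5 and 0.358, a difference of 1.60 (SE 0.0655). Neither gene's sets overlapped those of clusters 1 or 2. Ppp1r1c, a protein phosphatase inhibitor, was at 1.45, 1.57 and 1.62, and at most 0.0508 in any set of the others, a difference of 1.22 (SE 0.0384). Ctla2a (1.47), Tmem176b (1.47) and Arpc1b (1.32), a subunit of the Arp2/3 complex, followed. Cd63, a tetraspanin, was higher by 1.44, but a near-identical pseudogene copy makes its counting uncertain.

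Of 13 tested immediate early genes, 10 were called higher and 0 lower, with a median of 0.30. Fos was at 0.737, 0.809 and 1.22, against 0.271 to 0.639 and 0.220 to 0.496, and Btg2 at 0.803, 0.640 and 0.628, against means of 0.185 and 0.109. The summed level of the list was 8.87 to 15.0 in cluster 4, 4.88 to 8.71 in cluster 1 and 4.46 to 7.39 in cluster 2. Dissociation precedes these profiles in all clusters alike, and its part in the difference was not tested.

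Some glial markers were called as well. The 14 glial and Schwann cell markers summed to 21.7 to 44.1 in cluster 4, 12.2 to 15.1 in cluster 1 and 14.4 to 24.1 in cluster 2, so the ranges of clusters 4 and 2 overlapped. Apoe was not called, at 9.59, 10.3 and 23.7 against means of 5.33 and 7.73, and in Set 2 it was below the 12.5 of cluster 2. Of 9 tested, 3 were called higher, S100b (a difference of 0.60), Pmp22 (0.57) and Cnp, and 0 lower. Without Set 1, 7 were called higher. Leaving out the 78 neurons richest in glial counts, 15 of them in cluster 4, changed no call on the 105 named genes. Markers of other cells were sparse: of 10 endothelial markers 6 had no count in any cluster 4 cell, and of 5 immune and erythroid markers measured, 3 had none. Only 2 endothelial markers were tested, and 1 was called higher and 1 lower. The higher one was Ly6c1, at 0.222, 0.187 and 0.314, which passed the filter on mean level only through cluster 4. The 10 endothelial markers summed to 0.807 to 1.10 in cluster 4, 0.974 to 1.35 in cluster 1 and 1.02 to 1.38 in cluster 2. The 3 chromaffin markers tested were called lower against the mean of clusters 1 and 2, but only Chgb was lower than both: Chga was called higher than cluster 2 (1.62 against 1.04), and Slc18a1 was not called against cluster 1 (0.132 against 0.0712). The mural marker Rgs5 was lower by a difference of -0.44.

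Within cluster 4 the cells were not uniform. The 12 most variable genes, ranked by variance over mean in 53 cells thinned to 15000 counts, included Sst, Cartpt, Apoe and Vip. In 7 others a single cell held most of the summed level: 93.7% for Zfp426, 98.8% for Gm11934, 92.7% for Pcgf2, 98.6% for Sprr1a, 87.4% for Tbl2, 79.5% for RP24-310D17.9 and 53.8% for Cenpf. Apoe, the apolipoprotein that glia express strongly, reached 10 or more in 17 of 54 cells (31.5%), against 14.2% of cluster 1 and 20.0% of cluster 2 cells.

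Cartpt was used to divide the cells. A level of 10, chosen after the values were seen, lay in a gap between 9.08 and 12.5 and put 22 cells above and 32 below, of which the 30 with Slc18a3 are used here. The high group held 4, 11 and 7 cells of Sets 1, 2 and 3, or 33.3%, 45.8% and 38.9% of the cluster. Because the division comes from the same cells, the values that follow are a description with no test. Sst was counted in 17 of the 22 high cells and in 1 of the 30 low cells. Th went the other way: it was under 10 in 15 high cells and 1 low cell, and at 20 or more in 4 high and 27 low cells. The low cell with Th under 10 (3.69, Set 1) was also the low cell with an Sst count (4.02), and its Cartpt level was 2.35.

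**Figure D4:**
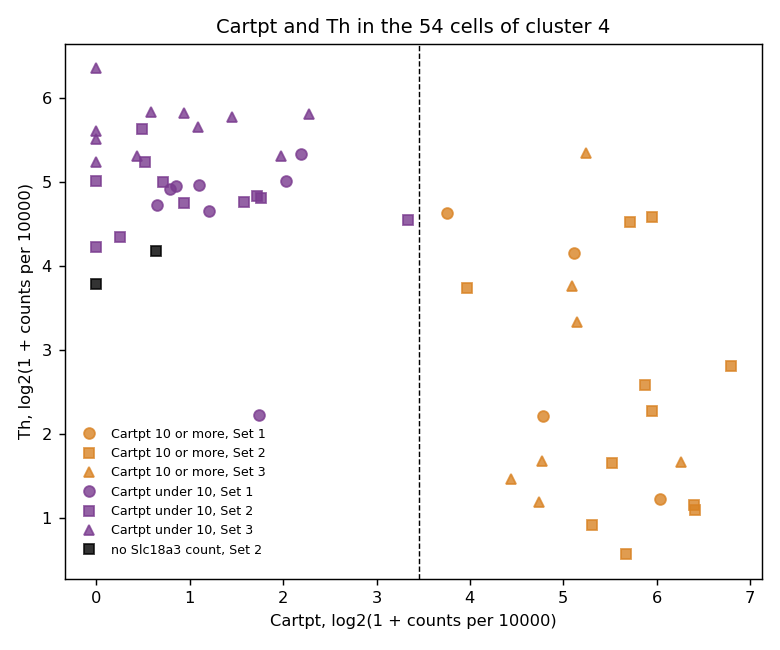
Cartpt (horizontal axis) and Th (vertical axis), both as log2 of 1 plus counts per 10000, in the 54 cells of cluster 4. Circles, squares and triangles are Sets 1, 2 and 3; orange cells have Cartpt at 10 or more, purple cells less, and black squares are the pair with no Slc18a3 count. The dashed line marks the level of 10, and low Th is found mainly to the right of it.

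Set means repeated the pattern. Th was at 11.4, 7.09 and 9.80 in the high cells of the 3 sets and at 26.6, 28.5 and 50.6 in the low cells. Sst was at 14.4, 11.2 and 6.88 in the high cells, and at 0.503, 0 and 0 in the low cells. The means of both genes lay on the same side in every set, while single cells overlapped. Edn3, endothelin 3, was at 1.21, 3.18 and 4.99 in the high cells and at 1.04, 0.192 and 0.178 in the low cells, so the means of Set 1 differed little. The median low cell was at 0, and a single cell of Set 1, at 6.71, held most of that set's low-cell level.

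Ass1 was at 3.02, 3.98 and 4.21 in the high cells and 6.97, 9.17 and 10.0 in the low cells. Slc7a3, the arginine transporter, was at 1.96, 2.14 and 4.44 against 0.586, 0.376 and 0.325. The 2 arginine genes thus lay on opposite sides. Ncald, a neuronal calcium sensor, had means of 4.51 and 0.753 over the sets, and Gda, guanine deaminase, 2.61 and 0.231. Higher in the low cells were Thy1 (1.78 against 6.2), Scg2 (0.724 against 3.93), Crtac1 (0.584 against 4.32), Cntn5 (0.179 against 1.42) and Cdkn1a (1.76 against 5.26).

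Of the cholinergic genes, Slc5a7 was lower in the high cells of every set, at 1.36, 2.77 and 0.996 against 2.22, 3.54 and 2.33 in the low cells. Slc18a3 had means of 5.02 ± 0.408 in the high cells and 5.51 ± 1.49 in the low cells (SD, n = 3), Chat 0.545 and 0.515, and Gfra2 1.95 and 1.99. Vip was at 47.5 ± 7.49 and 61.2 ± 4.63, and was lower in the high cells of every set. Dbh went against Th, at 9.39 ± 1.12 in the high cells and 5.04 ± 0.269 in the low cells. Depth was alike, with medians of 33228.5 and 35488.5 counts, and the median share of glial counts was 0.183% and 0.128%.

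**Figure D5:**
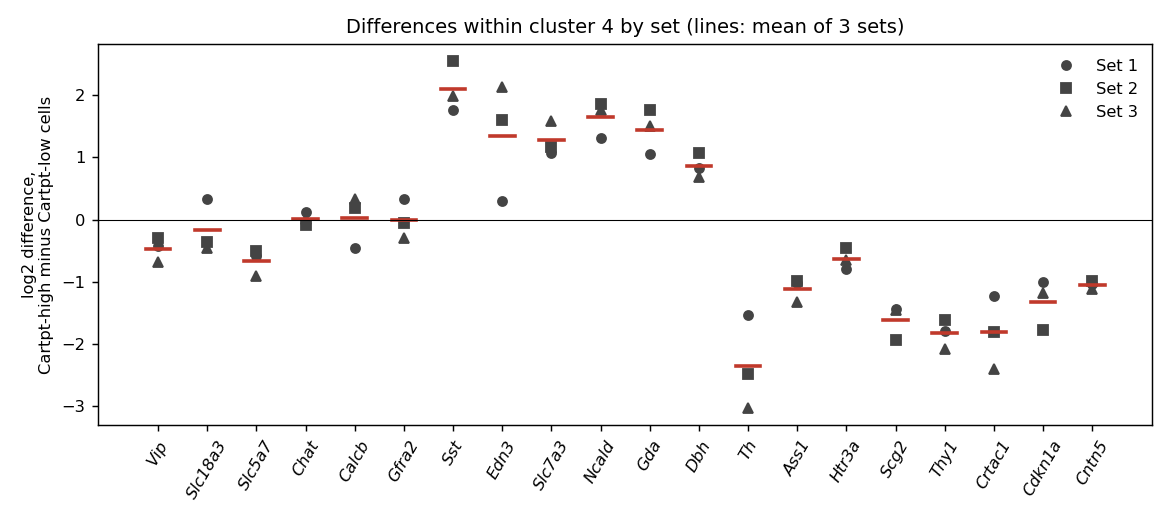
Difference in mean log2(1 + counts per 10000) between cluster 4 cells with Cartpt at 10 or more and those with less, for 20 genes. Symbols are the 3 sets and red lines their mean. Slc18a3, Chat, Calcb and Gfra2 lie around 0, Sst and Ncald lie above 1 and Th below -1 in every set.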

How the data were processed

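The submitters' processing notes name STAR 2.5.3a, SAMtools 1.4.1, featureCounts 1.5.3, Seurat (no version) and the build GRCm38. The deposited values are the natural log of 1 plus counts per 10000, and whole counts were recovered (within 0.001) for 100% of non-zero values. Levels were averaged over the cells of each set and cluster as log2(1 + counts per 10000), with a pseudocount of 1, for genes with a mean of at least 0.05. With its trend and robust options, limma 3.58.1 (R 4.3.3) was fitted to clusters 1, 2 and 4 with the set as a block, two-sided, with Benjamini-Hochberg adjustment over all genes and a threshold of 0.05. Cells of a set share pooled mice and plates, which is why the set was a block. Deviations from cluster means correlated at 0.555 to 0.866 within a set and at -0.720 to 0.00171 between sets. Such deviations cancel out over the sets, which by itself pushes the correlations between sets down. The contrast is therefore no test of the block, and it cannot tell mice from plates. The fit was run on simulated data, in which counts of some genes were lowered in randomly drawn cluster 1 cells. Those cells were not clustered by their expression and do not differ from cluster 1 by set. The simulation therefore cannot give the error rate of the calls above.

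Named genes were a fixed set of 16, up to 4 per list, 15 in each direction and the 12 most variable; other list members, the genes of the Cartpt division and those of the pair without Slc18a3 were chosen after their values were seen. The members and lists were chosen with earlier results of these data known. Gene positions are from GENCODE M21. Tables and plots were made with scipy 1.17.1, pandas 2.3.3, matplotlib 3.10.9 and numpy 2.4.6 (Python 3.11.15). Alternatives were no block, other size factors, pseudocounts and filters, thinning, leaving out each set, glia-rich neurons or cells without Slc18a3, and cluster 3 in the fit. Leaving out cells without Slc18a3 and scaling summed counts to their total were chosen after seeing the data. No doublet caller was run. No tracer comparison was made because wells could not be tied to cells. Some genes that the rule or the lists hold are not reported here.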

Additional observations from a re-analysis of the deposited data

Results flagged for a closer look

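Cluster 3, outside the comparisons above, held Vip counts above the level of clusters 1 and 2. Its mean Vip level was 0.725 in Set 1 (28 cells), 2.97 in Set 2 (50 cells) and 0.857 in Set 3 (23 cells), against 0.150, 0.353 and 0.140 in cluster 1 of the same sets. No cluster 3 cell of Sets 1, 2 or 3 had more than 3, 6 or 2 Vip counts, and the median depth of its cells was 4653.5, 4841 and 61516 counts. Slc18a3 was counted in 1, 3 and 2 of those cells.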

How the results depend on the processing

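Of the 105 named genes, none reversed under any alternative run. Without the replicate block, 96 calls were unchanged, 8 were lost and 1 was gained, and the counts of genes called fell from 2608 to 1118 (against the mean of clusters 1 and 2), from 2254 to 920 (cluster 1) and from 2111 to 831 (cluster 2). A minimum mean level of 0.5, which tests fewer genes, gave 1328, 1243 and 1201. Cluster 3 in the fit gave 1520, 1286 and 1161, and the cause was not tested. Thinning to 15000 counts per cell gave 1420 against cluster 1 and 1394 against cluster 2. Leaving out each set gave 1810 to 1869, 1473 to 1519 and 1326 to 1462 calls, which rest on fewer samples (against cluster 1, 1499 without Set 2 and 1473 without Set 3; against cluster 2, 1326 without Set 2), and 5.48% to 7.79% for the mean share of cluster 4. Median-of-ratios size factors, summed counts scaled to their total and the lack of a filter changed no named call. The call on Chrm1 was lost without Set 1, without the block and after thinning, and that on Npy without Set 1. At full depth, 10 of the 12 most variable genes were shared. With 12 to 24 cells per set, levels of genes with few counts carry wide counting error.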
